A study of Mus musculus with 8 samples.

Results

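The complement components and receptors are 9 genes, taken by their symbols from the table of 55401 genes. C1qa, C1qb and C1qc encode the chains of C1q, C2 and C4b act in the classical pathway, Cfb in the alternative pathway and C3 where the pathways meet, and C3ar1 and C5ar1 encode the receptors of the fragments C3a and C5a. Each of the 9 had a row and reads in the table, and 8 averaged 10 or more normalized counts over the muscles and were tested, the exception being Cfb.

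Complement is a cascade of proteins that marks damaged cells and microbes for removal. C1q binds its targets and activates the proteases C1r and C1s, these cleave C4 and C2 into an enzyme that cleaves C3, and factor B forms the corresponding enzyme of the alternative pathway. C1q chains are made largely by macrophages and other myeloid cells, C3 and C4 also by liver and stromal cells, and the anaphylatoxin receptors draw and activate myeloid cells, which enter dystrophic muscle.

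The data were total RNA sequencing of 8 whole tibialis anterior (TA) muscles of male mice aged 6 mo, of which 4 were from wild type (WT) mice and 4 from mdx5cv, a mouse model of Duchenne muscular dystrophy (DMD) with a mutation in Dmd, the dystrophin gene. The strain was labelled C57/Bl6 in both groups, no treatment was labelled, and the mutation is present in every cell of the animal. The labels number the samples but do not say whether each came from a separate animal, so the p-values measure the spread between these samples. Recovered reads per library ranged from 13175524 to 14921057. Dmd, which is still transcribed in this model, was 6954 ± 857 normalized counts in WT and 3964 ± 388 in mdx5cv (SD, n = 4 each), with a log2 fold change of -0.81 (adjusted p = 0.000177 by limma). The 6 muscle fiber markers all had reads in every muscle, and 1 of them, Mb, was lower in mdx5cv past the threshold (log2 fold change -1.59). Ckm and Tnnt3 were at -0.75 and -0.63 (adjusted p = 0.0227 and 0.0277, limma), under the fold minimum of 1. Acta1, Pvalb and Myh4 were between -0.15 and -0.07 and did not pass.

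The libraries numbered 4 had the highest hepatocyte marker sum of their groups, and the fit without both was chosen after seeing the data. The sum of 5 hepatocyte markers was 267 normalized counts in mdx5cv replicate 4, 50.8 in WT replicate 4 and 20.4 in mdx5cv replicate 1, against 0 to 2.19 in the other 5 muscles, and most of it was Alb (231 in mdx5cv replicate 4 and 33.9 in WT replicate 4). WT replicate 4 also had the highest adipocyte marker sum, 478 against 61.9 to 178 in the other WT muscles, and mdx5cv replicate 4 the highest macrophage marker sum, 9084 against 3782 to 5290 in the other mdx5cv muscles. Results for the members are therefore given with and without both of these libraries where a call changed, and the part of liver RNA in these libraries was not tested. Complement genes that liver makes in quantity differed in their highest muscle. It was mdx5cv replicate 2 for C3, WT replicate 4 for C4b and WT replicate 2 for Vtn. For Serping1 (706 normalized counts), Hc, Cfi, C8a, C8b and C4bp it was mdx5cv replicate 4, where the last 5 had 2 to 8 reads.

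**Figure D1:**
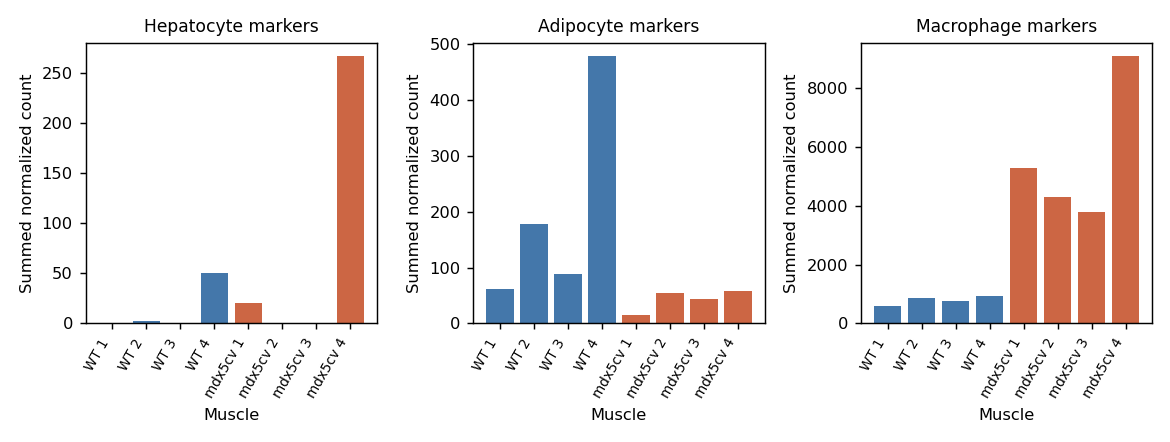
Summed normalized counts of the hepatocyte, adipocyte and macrophage marker lists in each of the 8 muscles (blue, WT; orange, mdx5cv; bars start at 0). The hepatocyte sum was 267 in mdx5cv replicate 4 and 50.8 in WT replicate 4, and the macrophage sum was 3782 to 9084 in mdx5cv and 603 to 925 in WT.

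Of the 8 members tested, 6 rose in mdx5cv past the threshold, 0 fell and 2 did not pass. C5ar1, among those that rose, had a WT mean under 10 and reached the minimum mean for testing through mdx5cv. The threshold combined an adjusted p under 0.05 (limma, Benjamini-Hochberg adjustment) with a minimum log2 fold change of 1 in either direction, on the scale of log2(normalized count + 1). Over all 13677 genes tested, 10.3% rose and 3.27% fell by the same threshold. The C1q chains, C3ar1 and C5ar1 were the members with large changes, C2 rose by less, and C4b and C3 did not pass. The median log2 fold change was 2.49 over the members tested and 0.00 over all genes tested. The groups did not overlap for 6 of the 9 members, or 5 of the 8 tested, all with mdx5cv above WT, and the background of genes without overlap in that direction was 20.3%. No member was lower at an adjusted p under 0.05, against 20.1% of all genes. None was lower at an unadjusted p under 0.05 either, where the share of all genes was not counted. On recovered reads, edgeR and DESeq2 also called 0 members lower. Without both replicates numbered 4, 5 members rose, as C2 no longer passed.

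**Figure D2:**
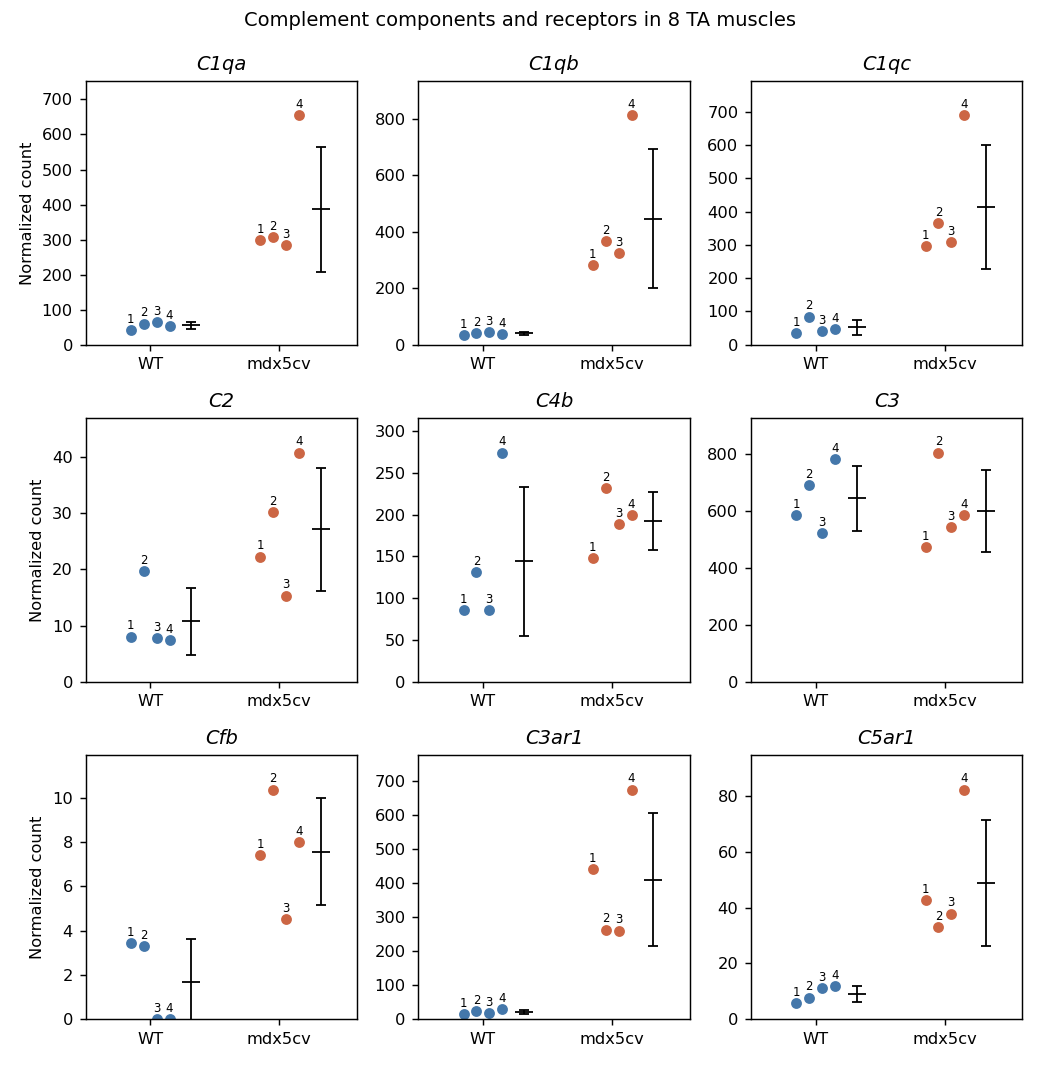
Normalized counts of the 9 members in each muscle (points, numbered by replicate; blue, WT; orange, mdx5cv), with the mean and SD of each group (n = 4) as a black bar. C1qa, C1qb, C1qc, C3ar1, C5ar1 and Cfb did not overlap between groups, whereas C2, C4b and C3 did, and mdx5cv replicate 4 was the highest muscle for C1qa, C1qb, C1qc, C2, C3ar1 and C5ar1. The vertical scale differs between genes.

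The C1q chains lie side by side on the minus strand of chromosome 4 (GRCm38). C1qb is at chr4:136880129-136886187, C1qc at chr4:136889804-136893065 and C1qa at chr4:136895917-136898803, within 18675 bases that hold no other annotated gene. Because these neighbours rose together, the sequence before the starts of C1qb and C1qc is shown, taken from RefSeq on GRCm38.p6, which held 5 of the 9 members (C1qb, C1qc, C3, C3ar1 and C5ar1). Both are on the minus strand, 5′ to 3′, C1qb as 250 bases (chr4:136886201-136886450) and C1qc as the 99 bases outside its annotated gene (chr4:136893066-136893164). Capitals mark GAGGAA, letters bound by the myeloid factor PU.1, on either strand, and the shorter GGAA was not marked elsewhere.
C1qb: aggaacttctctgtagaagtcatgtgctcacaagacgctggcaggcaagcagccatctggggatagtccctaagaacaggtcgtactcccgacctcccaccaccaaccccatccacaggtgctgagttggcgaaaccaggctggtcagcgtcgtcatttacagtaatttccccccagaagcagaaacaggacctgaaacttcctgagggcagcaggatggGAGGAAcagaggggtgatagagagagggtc
C1qc: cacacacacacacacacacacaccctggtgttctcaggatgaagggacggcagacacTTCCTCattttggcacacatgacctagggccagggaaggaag
The match in C1qb lay 30 to 25 bases before the RefSeq start, and that in C1qc lay 193 to 188 bases before it on the opposite strand. Of the 32851 promoters of the same length in the RefSeq table, 23.3% held GAGGAA on either strand.

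C1qa encodes the A chain of C1q. Its normalized counts were 41.3, 60.3, 65.2 and 53.0 in WT and 299, 307, 285 and 654 in mdx5cv. Every mdx5cv muscle exceeded every WT muscle, and 3 of them were close together with replicate 4 well above. The log2 fold change was 2.72 ± 0.24 (SE; adjusted p = 4.76e-06, limma), a ratio of means of 7.03. C1qb, the B chain, had 33.2, 41.7, 45.3 and 38.1 in WT and 283, 366, 324 and 812 in mdx5cv. The WT values were within a narrow range and the lowest mdx5cv muscle was far above them. Its log2 fold change of 3.34 ± 0.26 (adjusted p = 1.97e-06, limma) was a ratio of means of 11.3. C1qc, the C chain, had 34.4, 84.5, 40.9 and 46.6 in WT and 296, 366, 308 and 690 in mdx5cv. WT replicate 2 was the highest WT muscle, and the groups again did not overlap. The log2 fold change of C1qc was 2.98 ± 0.29 (adjusted p = 7.52e-06, limma), a ratio of means of 8.04.

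The C1q chains rose past the threshold with and without replicate 4. Without both replicates numbered 4, the log2 fold changes were 2.42 for C1qa, 2.99 for C1qb and 2.68 for C1qc, with adjusted p of 5.66e-06, 1.11e-06 and 5.26e-05 (limma). C1qb took a larger part of the sum of the chains in every mdx5cv muscle than in any WT muscle. C1qb made up 27.6% ± 3.72 of the summed C1q normalized counts in WT (22.4% to 30.5%) and 35.1% ± 2.24 in mdx5cv (32.2% to 37.7%). C1qa was 37.9% ± 4.39 in WT and 31.3% ± 2.001 in mdx5cv, and C1qc 34.4% ± 7.78 and 33.6% ± 1.33 (SD, n = 4 each), both with overlap. These shares were not tested. Per kilobase of exon, a scale on which genes can be compared, the chains were at similar levels in mdx5cv, with means of 371 for C1qa, 410 for C1qb and 345 for C1qc normalized counts per kb, and their ranges overlapped widely.

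C3ar1 and C5ar1 encode the receptors for C3a and C5a, which are G protein-coupled receptors of myeloid cells. C3ar1 lies at chr6:122847138-122856161 and C5ar1 at chr7:16246743-16259540, both on the minus strand. C3ar1 had normalized counts of 14.9, 21.9, 17.7 and 28.6 in WT and 440, 262, 259 and 674 in mdx5cv. Its lowest mdx5cv muscle was several times its highest WT muscle. The log2 fold change was 4.16 ± 0.29 (adjusted p = 7.45e-07, limma) and the ratio of means 19.7, the largest among the members tested. C5ar1 was scarcer, with 5.73, 7.68, 11.1 and 11.7 in WT and 42.6, 33.0, 37.8 and 82.3 in mdx5cv. Its WT mean of 9.03 was under 10, and it reached the minimum mean through mdx5cv (48.9). The groups did not overlap. Its log2 fold change was 2.27 ± 0.32 (adjusted p = 0.000140, limma), a ratio of means of 5.42. Without both replicates numbered 4, the changes were 4.04 for C3ar1 (adjusted p = 1.26e-06, limma) and 2.12 for C5ar1 (adjusted p = 0.000462, limma).

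The sequence before the start of C3ar1 is shown as that of the member with the largest change, and that of C3 for contrast, as C3 did not pass the test. Both are on the minus strand, 5′ to 3′, C3ar1 as 246 bases (chr6:122856162-122856407) and C3 as 250 bases (chr17:57228137-57228386), from RefSeq on GRCm38.p6. Capitals mark TGANTCA, the AP-1 letters, in C3ar1 and TTNCGNAA, a C/EBP-type element, in C3.
C3ar1: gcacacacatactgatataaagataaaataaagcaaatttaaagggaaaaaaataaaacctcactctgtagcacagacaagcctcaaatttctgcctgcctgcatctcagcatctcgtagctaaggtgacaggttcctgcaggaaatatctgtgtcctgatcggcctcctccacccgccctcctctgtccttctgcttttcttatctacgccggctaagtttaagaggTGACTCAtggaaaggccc
C3: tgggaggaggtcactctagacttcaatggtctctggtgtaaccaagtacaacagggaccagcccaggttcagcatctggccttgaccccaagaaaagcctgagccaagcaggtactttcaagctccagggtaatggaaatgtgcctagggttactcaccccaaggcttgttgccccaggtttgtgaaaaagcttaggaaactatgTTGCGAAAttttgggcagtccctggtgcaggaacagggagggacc
The AP-1 match lay 22 to 16 bases before the start of C3ar1 and the C/EBP-type match 45 to 38 bases before the start of C3. The AP-1 letters were found in 6.75% of the 32851 promoters and the C/EBP-type letters in 2.04%. Neither an interferon element (GAAA, any 2 bases and GAAA), held by 2.98% of promoters, nor TTCNNNGAA, the GAS element held by 7.02%, was found in the 250 bases before any of the 5 members, and C5ar1 held none of the 5 motifs. A match describes letters and not a bound site.

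C3, the component at the center of the cascade, was the most abundant member per kb in WT muscle and did not pass the test. It lies at chr17:57203970-57228136 on the minus strand. Its normalized counts were 587, 691, 524 and 783 in WT and 472, 807, 544 and 586 in mdx5cv. The groups overlapped almost completely. The log2 fold change was -0.11, with a 95% interval of -0.47 to 0.24 (adjusted p = 0.612, limma), and scaling the libraries to equal totals turned its sign, to 0.24 (adjusted p = 0.250, limma). Per kb, C3 was at 126 ± 22.2 in WT and 117 ± 28.1 in mdx5cv (SD, n = 4 each). In WT, C1qa was next with 52.8 ± 10.025 per kb, and no WT muscle had as much C1qa, C1qb or C1qc per kb as any had C3. In mdx5cv all 4 muscles of each C1q chain were above all 4 of C3, so the order of C3 and C1q on the per-kb scale was turned between the groups.

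C4b encodes complement component C4 and lies at chr17:34728380-34743882 on the minus strand. Its normalized counts were 86.0, 132, 86.2 and 274 in WT and 148, 232, 189 and 200 in mdx5cv. WT replicate 4 was the highest muscle of all 8, and the other 3 WT muscles were below every mdx5cv muscle. That muscle was also the WT muscle with hepatocyte and adipocyte marker sums of 50.8 and 478, whose part in its C4b was not tested. The log2 fold change was 0.57, with a 95% interval of -0.08 to 1.21 (adjusted p = 0.149, limma). Without WT replicate 4 it was 0.93 (adjusted p = 0.00260, limma), and without both replicates numbered 4 it was 0.91 (adjusted p = 0.00637, limma), in each case under the fold minimum. With all libraries scaled to equal totals, C4b was at 0.92 (adjusted p = 0.0278, limma), also under that minimum. The median over all genes tested was 0.36 on that scale. C4a, a close paralog of C4b, had 0 to 5.40 normalized counts, and reads that could come from either gene make C4b uncertain.

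C2, which supplies the protease of the classical C3 convertase, rose past the threshold with overlap between the groups. Its normalized counts were 8.02, 19.7, 7.74 and 7.42 in WT and 22.2, 30.2, 15.3 and 40.8 in mdx5cv. WT replicate 2 was above mdx5cv replicate 3, and the other 3 WT muscles were below all of mdx5cv. The log2 fold change was 1.29 ± 0.37 (adjusted p = 0.0146, limma), a ratio of means of 2.53. Without mdx5cv replicate 4 it was 1.07 (adjusted p = 0.0505, limma), and without both replicates numbered 4 it was 0.95 (adjusted p = 0.0937, limma).

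Cfb encodes factor B, the alternative pathway counterpart of C2. Its normalized counts were 3.44, 3.29, 0 and 0 in WT and 7.41, 10.4, 4.502 and 7.99 in mdx5cv, from 6 reads in WT and 34 in mdx5cv. The groups did not overlap, at counts too low for the test across genes. With no filter on low values the log2 fold change was 1.99 (adjusted p = 0.0166, limma). Cfb (chr17:34856374-34862518) and C2 (chr17:34862604-34898265) are separated by 85 bases on the minus strand of chromosome 17. The annotated gene Gm20547 runs across both on the same strand, shares 79.5% of the exonic bases of Cfb and 56.5% of those of C2, and has 0 exonic bases outside them. Gm20547 was listed at 0 in all 8 muscles, and how reads on shared bases were assigned is not given in the sources used here, so the levels of C2 and Cfb are uncertain. Their levels per kb depend on that assignment. With all reads of the gene divided by its full exonic length, C2 was at 3.66 normalized counts per kb in WT and 9.26 in mdx5cv, and divided by the length not shared with Gm20547 it was at 8.42 and 21.3. For Cfb the values were 0.595 and 2.68 by the full length and 2.91 and 13.1 by the length not shared.

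C2 and Cfb were left out of the order of levels, since the place of C2 among C3ar1 and C5ar1 changed with the length used. Per kb in WT, the order of the other members below C3 was C1qa (52.8), C1qc (42.9), C1qb (36.4), C4b (26.9), C3ar1 (4.83) and C5ar1 (3.51). Of the neighbours in this order, C4b was separated from C3ar1 in all muscles and the others overlapped. In mdx5cv the order was C1qb (410), C1qa (371), C1qc (345), C3 (117), C3ar1 (94.96), C4b (35.7) and C5ar1 (19.0). There C1qc was separated from C3 and C3ar1 from C4b in all muscles, and the other neighbours overlapped. C3ar1 moved from below C4b in every WT muscle to above C4b in every mdx5cv muscle.

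In bulk muscle, more cells of a type and more RNA per cell cannot be told apart. Of 10 macrophage markers, 9 rose past the threshold and Cd163 fell (log2 fold change -1.49). Fcgr1, Cx3cr1 and Cd14 had WT means under 10 (1.64, 3.83 and 6.95) and reached the minimum mean through mdx5cv. All 10 had reads in every muscle except Fcgr1, which was at 0 in WT replicate 1, and the summed level ranged from 603 to 925 normalized counts in WT and from 3782 to 9084 in mdx5cv. Of 10 fibroblast markers, 5 rose and 0 fell, with sums of 11894 to 18500 in WT and 28099 to 45040 in mdx5cv. The collagens Col1a1, Col3a1 and Col1a2 rose most (3.13, 3.09 and 2.29), so the mean of this list rose mainly with them. Dcn, Gsn, Pi16 and Dpp4 were between -0.45 and -0.01 and did not pass. The neutrophil list had 1 gene tested, Csf3r, which rose (log2 fold change 2.88). Its WT mean of 6.02 was under 10, and it reached the minimum mean through mdx5cv (52.9). Retnlg was at 0 in all muscles and S100a8, S100a9, Ly6g and Mpo were at or near 0. The members were also compared per level of the macrophage and of the fibroblast markers, and the part of other cells was not tested.

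Relative to the mean log2 level of the 10 macrophage markers in the same muscle, 2 of the 8 members were higher in mdx5cv at an adjusted p under 0.05, 3 were lower and 3 did not pass. Against this reference 1.24% of all genes were higher and 94.8% lower. C3ar1 was higher by 1.64 on the log2 scale (adjusted p = 1.23e-06, limma), with values relative to the markers of -0.87 to -0.33 in WT and 0.70 to 1.153 in mdx5cv. C1qb was higher by 0.81 (adjusted p = 0.0156, limma), with 0.07 to 0.44 in WT and 0.52 to 1.37 in mdx5cv. Neither gene overlapped between the groups on this scale, and nor did C2, C3 or C4b, which were lower. The share of all genes without overlap on this scale was not counted. Without WT replicate 4, C1qb no longer passed (0.75, adjusted p = 0.0526, limma). C1qa differed by 0.20 (95% interval -0.46 to 0.85), C1qc by 0.46 (-0.20 to 1.11) and C5ar1 by -0.25 (-1.04 to 0.54). C1qc passed as higher with a pseudocount of 10 (0.76, adjusted p = 0.0116, limma) and with the median of the marker list in place of its mean (0.90, adjusted p = 0.0354, limma). C2 was lower by this measure by -1.23, C4b by -1.96 and C3 by -2.63 on the log2 scale (adjusted p = 0.00418, 7.79e-09 and 3.12e-13, limma). With the median of the list C2 was at -0.79 and no longer passed (adjusted p = 0.111, limma). The error of the marker mean is shared by all genes in this fit. Without moderation of the variance, adjusted p was 0.000463 for C3ar1 and 0.00958 for C1qb.

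Relative to the 10 fibroblast markers, 5 members were higher at an adjusted p under 0.05, 1 was lower and 2 did not pass, where 5.28% of all genes were higher and 79.2% lower. C3ar1 (3.07), C1qb (2.24), C1qc (1.89), C1qa (1.63) and C5ar1 (1.18) were higher on the log2 scale. With a pseudocount of 10, C5ar1 was at 0.50 and no longer passed (adjusted p = 0.0588, limma). C3 was lower by -1.20 (adjusted p = 1.47e-05, limma). C2 differed by 0.20 and C4b by -0.53 (adjusted p = 0.607 and 0.0759, limma). Without WT replicate 4, C4b was at -0.12 (adjusted p = 0.628, limma), and without both replicates numbered 4 at -0.080 (adjusted p = 0.765, limma).

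**Figure D3:**
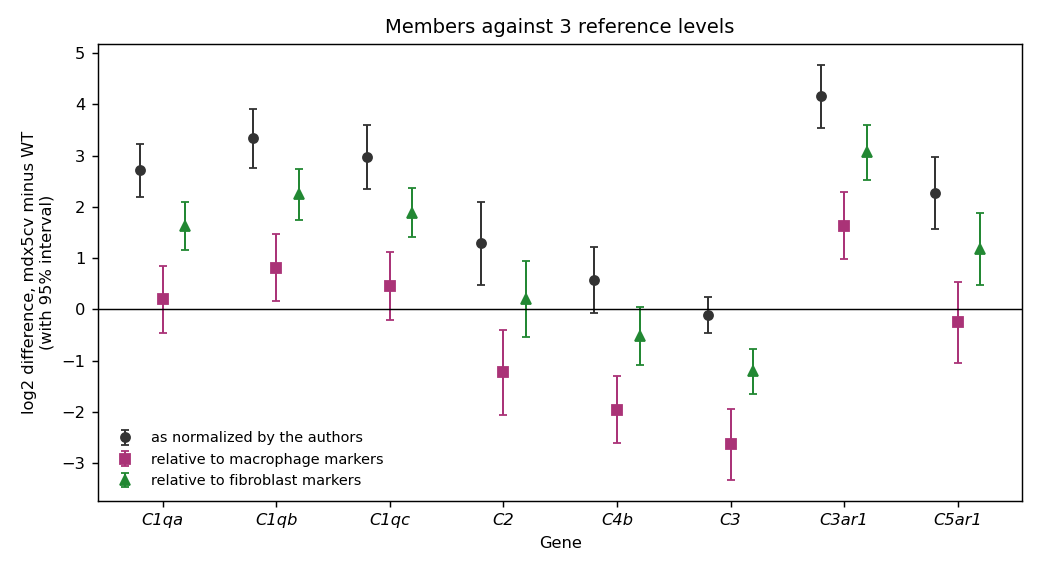
Difference between mdx5cv and WT in log2 units with its 95% interval (n = 4 each) for the 8 members tested, as normalized by the authors (circles), relative to macrophage markers (squares) and relative to fibroblast markers (triangles). C3ar1 was above 0 on all 3 scales, C1qa was at 2.72, 0.20 and 1.63, and C3 was at -0.11, -2.63 and -1.20.

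The rest of the pathway was read from 43 further complement genes, of which 41 had reads and 20 were tested. Past the threshold 5 rose and 0 fell, against the 10.3% and 3.27% of all genes. Among those that rose, Itgam, Itgax and C5ar2 had WT means under 10 and were tested through mdx5cv. Without both replicates numbered 4, 4 rose. With no minimum fold, 10 were higher and 3 lower at an adjusted p under 0.05, against 20.9% and 20.1% of all genes. At an unadjusted p under 0.05, 7 were lower. The share of all genes was not counted at that level, so this count has no background. By edgeR 0 of these genes fell past the threshold, and by DESeq2 1 did.

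Among the other receptors, the 4 genes tested all rose. Itgam, Itgax and C5ar2 had WT means under 10 (3.88, 5.22 and 6.60). They reached the minimum mean through mdx5cv (52.4, 317 and 17.3), so that all genes tested rose follows in part from the filter. Itgam and Itgax, whose products pair with that of Itgb2 to form complement receptors 3 and 4 for C3 fragments, rose by 3.49 and 5.78 on the log2 scale, and Itgb2 rose by 3.73 (adjusted p = 4.01e-06, 1.02e-06 and 3.93e-06, limma). Itgax had normalized counts of 4.58, 1.097, 8.85 and 6.36 in WT and 280, 232, 215 and 539 in mdx5cv. C5ar2, the second C5a receptor, rose by 1.12 (adjusted p = 0.0408, limma), but without mdx5cv replicate 4 it was at 0.74 (adjusted p = 0.134, limma). Without both replicates numbered 4 it was also at 0.74 (adjusted p = 0.168, limma). Leaving out WT replicates 1, 2 or 4 or mdx5cv replicates 1 or 3 also raised its adjusted p above 0.05. Cr2 and Vsig4 were too low to test, with at most 5.66 normalized counts in any muscle.

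In the alternative pathway, Cfp, which encodes properdin and stabilizes the C3 convertase, rose by 1.70 (adjusted p = 0.000194, limma), from 21.9 to 37.6 normalized counts in WT to 74.5 to 153 in mdx5cv. Cfd, factor D, was at -0.76 (adjusted p = 0.0890, limma), and its highest muscle was WT replicate 4 (118 normalized counts). That muscle also had the most adipocyte marker RNA, whose part in its Cfd was not tested. Of the classical and lectin genes, 3 of 13 were tested and none passed. The C1q-associated proteases C1ra and C1s1 were at 0.53 and 0.44 (adjusted p = 0.0248 and 0.0152, limma), against 2.72 to 3.34 for the chains of C1q. The terminal genes C7 and C8g were at -0.64 and -0.80 (adjusted p = 0.0450 and 0.0788, limma), and Hc, C6, C8a, C8b and C9 were too low to test.

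The regulators, which limit complement on host cells and in plasma, had 9 of 15 genes tested and none past the threshold. Serping1, the C1 inhibitor, was at 0.59, and Cd55, decay accelerating factor, at 0.42 (adjusted p = 0.00404 and 0.00413, limma). Clu and Vtn, inhibitors of the membrane attack complex, were at -0.78 and -0.57 (adjusted p = 0.0283 and 0.0281, limma). Without WT replicate 2, Clu was at -1.07 (adjusted p = 0.00118, limma) and passed. Leaving out WT replicates 3 or 4 or mdx5cv replicates 1 or 4 raised its adjusted p to 0.0953, 0.0793, 0.0702 and 0.0742 (limma). Without both replicates numbered 4, Clu was at -0.58 (adjusted p = 0.155, limma), and with equal totals at -0.42 (adjusted p = 0.200, limma). Cd46, Cd59a, Cd59b and Cr1l were between -0.49 and -0.17 and did not pass at an adjusted p under 0.05.

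**Figure D4:**
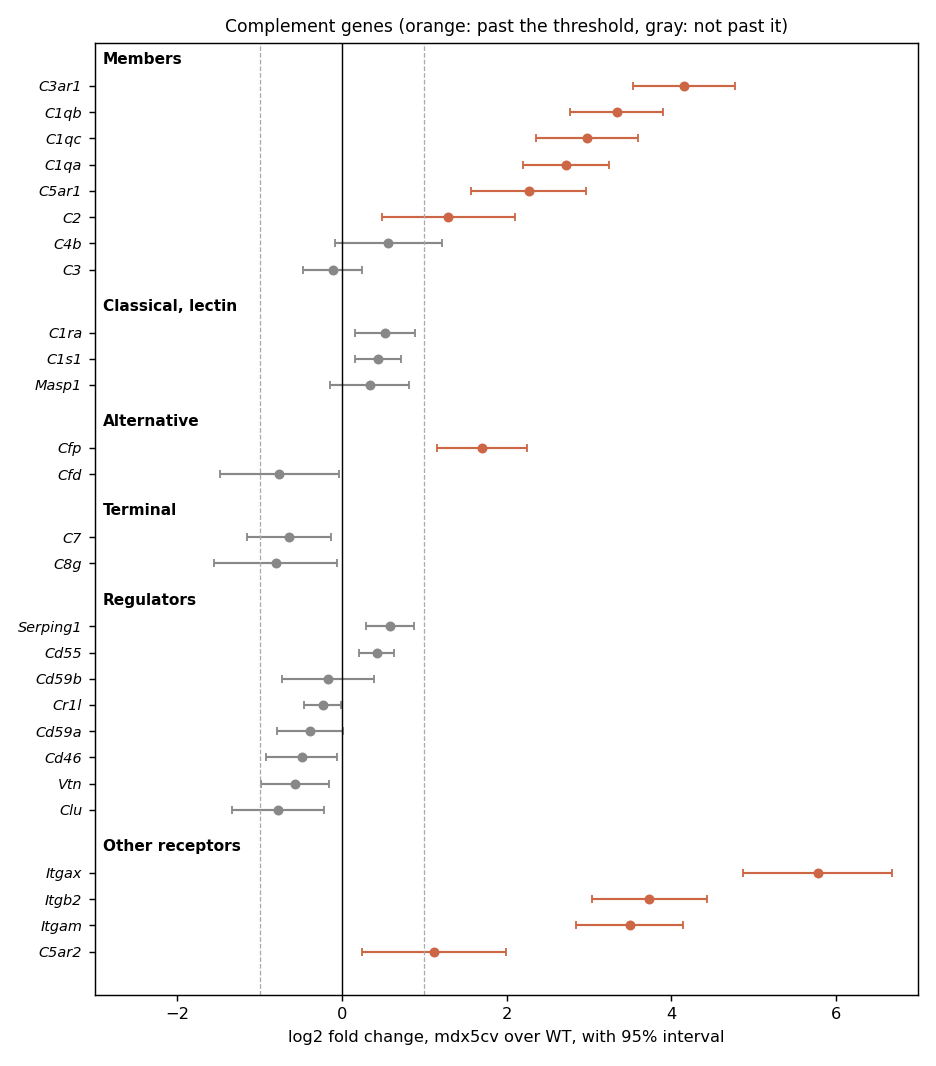
Log2 fold change of mdx5cv over WT with its 95% interval (n = 4 each) for the 8 members tested and the other complement genes drawn, grouped by role (orange, past the threshold; gray, not past it; dashed lines, log2 fold changes of -1 and 1). The genes past the threshold were C1q chains, receptors, C2 and Cfp, and the regulators drawn lay between -0.78 and 0.59.

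Genes with a similar course over the muscles were sought among 9726 genes outside all lists, by the root mean square difference from the profile in log2 units over the 8 muscles. The nearest to the mean of the C1q chains were Lilrb4a (0.23), Fcgr3 (0.24), Ptafr (0.24), Sirpa (0.26) and Pld4 (0.26), whose log2 fold changes were 2.82 to 3.25. The nearest to C3 were Mill2 (0.11), Lsm1, Eefsec, Rnf144a and Kctd20 (0.15). The nearest to C4b were Tnfrsf12a (0.27), Csf1, 6530402F18Rik, Plcd3 and Vps18 (0.33). Depth and composition of the library are shared by all genes of a muscle, and no test was made.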

How the data were processed

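Groups were taken from the sample labels. Per the labels, RNA was extracted with Trizol and libraries were stranded total RNA. The authors deposited a signal per gene, which is the read count divided by a size factor for each library. Per the submitters' processing notes the tools included Trim Galore 0.6.4, STAR 2.6.0c, SAMtools 1.9, featureCounts and DESeq2 1.26.0 in R 3.6.2, with the mm10 build, and the strand and overlap settings of counting are not given in the sources used here. Whole reads were recovered from 100% of values (tolerance 0.01). Chi-square per degree of freedom between replicates was 9.55 to 43.2, and no library was treated as a duplicate.

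Groups were compared with limma 3.58.1 (R 4.3.3; lmFit, eBayes with a variance trend, two-sided, Benjamini-Hochberg adjustment) on log2(normalized count + 1) over 13677 genes with a mean of at least 10. A fold on this scale understates the change of low genes. A gene with a WT mean under 10 could be tested only if its mdx5cv mean was above 10. Alternatives on recovered reads were DESeq2 1.42.0 and edgeR 4.0.16 with its quasi-likelihood test. The scripts were tested on simulated data. Marker lists covered macrophages, fibroblasts, neutrophils, mast cells, endothelium, adipocytes, hepatocytes, erythrocytes and muscle fibers. Some genes of the lists are counted but not reported by name here. The members and lists were chosen with earlier results of these data known. Genes named are the members, these lists, Dmd and the 5 genes nearest to each of 3 profiles (the C1q mean, C3 and C4b) whose normalized counts average 50 or more. Coordinates and exonic lengths are GENCODE M21 on GRCm38. Figures used Python 3.11.15, pandas 2.3.3, numpy 2.4.6 and matplotlib 3.10.9.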

Additional observations from a re-analysis of the deposited data

Results flagged for a closer look

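Of 76 sets of 4 muscles examined, each a complement gene or marker list in 1 group, 4 held a muscle whose distance from its nearest neighbour took up most of the range of the group, where chance gives 3.8 at 1 in 20. On the scale of log2(normalized count + 1), C1qa was at 9.36 in mdx5cv replicate 4 and at 8.16 to 8.26 in the other mdx5cv muscles. C2 was at 4.37 in WT replicate 2 and at 3.07 to 3.17 in the other WT muscles. C1s1 was at 8.28 in mdx5cv replicate 1 and at 8.75 to 8.81 in the others of that group. The mean of the fibroblast markers was 9.29 in WT replicate 2 and 8.78 to 8.81 in the other WT muscles.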

How the results depend on the processing

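Of the members, C1qa, C1qb, C1qc, C3ar1 and C5ar1 stayed past the threshold under every alternative that tested them (20 alternatives, or 19 for C5ar1), and the count of members that rose ranged from 4 to 7 (5 to 6 when each muscle was left out in turn). C2 was lost with a pseudocount of 10 (0.83), without mdx5cv replicate 4 (1.07) and without both replicates numbered 4 (0.95), the last chosen after seeing the data, and ranged from 1.07 to 1.603 with each muscle left out. With libraries scaled to equal totals, the median over all genes tested moved from 0.00 to 0.36, C3 turned to 0.24, Cd59b to 0.17 and Cr1l to 0.12. Relative to that shift C3 was lower than the median gene, and 2255 genes rose and 209 fell, against 1414 and 447. With no filter 2202 rose, with at least 10 in every sample 729 rose and 275 fell, and at a minimum log2 fold change of 2 in either direction, 600 rose and 85 fell. Of the other complement genes, 2 fell with no filter and 1 with DESeq2, 0 to 1 fell with each muscle left out, and 2 rose with at least 10 in every sample, where 12 marker genes passed against 22. The cause of these differences was not tested, except that a stricter filter tests fewer genes. Relative to macrophage markers, C5ar1 turned to 0.19 with the median of the list, 1 to 3 members were higher and 2 to 3 lower over all alternatives (C1qc gained with a pseudocount of 10 and with the median, C2 lost with the median), and 1 to 2 were higher with each muscle left out (1 without WT replicate 4). Relative to fibroblast markers, 4 to 5 members were higher (4 with a pseudocount of 10, where C5ar1 was lost), and 2 members were lower, C4b as well as C3, with a pseudocount of 10 and with the median of the list, and 1 to 2 with each muscle left out (2 without WT replicates 1, 2 or 3 or mdx5cv replicate 2). C2 turned to -0.24 with a pseudocount of 10 and to -0.034 without both replicates numbered 4, and was 0.05 to 0.47 with each muscle left out.

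Same-numbered muscles correlated by 0.0501, 0.0309, 0.0722 and 0.146, not all over 0.1. The WT muscles numbered 1 and 2 correlated more with another number (up to 0.0741 and 0.0584). Those numbered 3 and 4 correlated most with their own number, against at most 0.0382 and 0.0059 with others. These few low values cannot tell whether the numbers pair the muscles, and the main comparison was not paired. With the replicate block 6 members rose and 0 fell, 1428 genes rose and 454 fell, C4b was at 0.57 (adjusted p = 0.0599, limma), and 2 members were lower relative to fibroblast markers.

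Of the remaining marker lists, mast cell markers had 1 of 5 higher (0 to 5 over alternatives), endothelial markers 0 of 5, adipocyte markers 3 of 4 tested lower, hepatocyte markers 0 of 1, erythrocyte markers 1 of 5 lower (0 to 3). At this depth 22 complement genes with reads were too low to test, among them Cfb (6 reads in WT and 34 in mdx5cv).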

Other observations

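Complement genes that other tissues express in quantity were read at low level in single muscles. Of the complement genes, 44 had reads in mdx5cv replicate 4 and 35 to 40 in each of the other 7 muscles. Over all genes, 22316 had reads in mdx5cv replicate 4, also the most, and 20035 to 21429 in the others. Reads of C8a (5), C8b (3), C4bp (2), C1rb (1) and Mbl1 (1) were found in mdx5cv replicate 4 and in no other muscle. This muscle had the highest hepatocyte marker sum, and the part of liver RNA in these reads was not tested. Colec11, a collectin of the lectin pathway, was too low to test and was at 5.53 to 8.78 normalized counts in WT and 0 to 3.60 in mdx5cv.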
